A study of Mus musculus with 24 samples.

Results

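The heat shock chaperones described here are 36 genes of 17721 in a table of daily rhythms fitted to mouse epidermis. They were taken from a list of 37 gene symbols that covers heat shock transcription factors, the HSP70, HSP90 and small heat shock families, their cochaperones and the 2 chaperonins, and each was found through the mouse Ensembl identifier of its row. Cct6a had no row and was not analysed here. The libraries of the series came from back skin epidermis of 24 male C57BL/6 mice aged 8 weeks, called EpiKO, in which Cre recombinase driven by the keratin 14 promoter had deleted Bmal1. This gene, also called Arntl, encodes a transcription factor that the circadian clock needs to run. The mice had chow at will and 12 h of light and 12 h of dark, and 4 animals were taken at each of zeitgeber time (ZT) 0, 4, 8, 12, 16 and 20, where ZT0 is lights on. The design text states that the clock was lost in the epidermis and kept in other tissues. The compared wild-type (WT) epidermis entered the same fit but its libraries are not among the samples of the series.

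Chaperones bind unfolded or partly folded proteins and help them reach or keep their native shape. HSP70 proteins bind short stretches of a client, J-domain proteins bring them clients, HSP110 and BAG proteins release the bound nucleotide, and HSP90 with its cochaperones finishes clients such as steroid receptors and kinases. The chaperonins are barrels that enclose a folding protein, HSP60 with HSP10 in mitochondria and the TCP1 ring complex in the cytosol. Heat shock factor 1 (HSF1) binds heat shock elements, arrays of GAA and its complement TTC spaced by a pair of bases, and drives many of these genes under heat or other protein damage, and in tissues of mice its activity follows the daily rise of body temperature.

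For each gene the authors' deposited table gives weights, from 0 to 1, for 5 models of the rhythm: none, in EpiKO only, in WT only, the same in both, or different in both. A gene was placed in the class whose weight was at least 0.5. The genotype other than WT bears a column label that is not explained, and it was taken as EpiKO because the comparison is with WT. The table holds the mean level and the peak-to-trough amplitude in log2, the time of the peak, but nothing for single libraries, so sequencing depth is unknown and no animal can be shown on its own. Weights of this kind differ by the likelihood of the models, so the likelihood ratio of any 2 models was computed back from them for 48 libraries, 24 per genotype. These ratios gave a test of rhythm in both genotypes together, in each genotype and between genotypes, an adjusted p over all 17721 genes (Benjamini-Hochberg) and the standard errors (SE) and 95% intervals printed below. They rest on the stated design and on errors of equal size in the 2 genotypes, and genotype cannot be told apart from other ways in which the EpiKO and WT libraries may differ.

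The knockout and the tissue were checked first. In WT the table gives Arntl a 4.65-fold rhythm and Dbp, a gene activated directly by BMAL1, a 42.8-fold rhythm, and assigns neither a rhythm in EpiKO in the authors' deposited table. Their rhythms differed between genotypes (adjusted p = 4.07e-20 and 7.14e-24, F test of the recovered likelihood ratio). The mean of Arntl itself was not lower in EpiKO: its log2 level was 9.65 there against 9.50 in WT in the authors' deposited table, slightly higher (adjusted p = 0.0342 for the mean, F test). That level covers the whole gene and the table does not show the deleted stretch alone, so the check rests on the rhythms. All 8 keratinocyte markers lay at 8.68 or above (log2) in both genotypes, and the 4 endothelial markers lay at or under 3.42 in EpiKO and 2.91 in WT, in the authors' deposited table. Some cell type markers differed in mean between genotypes. Of all genes of the table, 31.3% were called higher in EpiKO and 36% lower. Higher means in EpiKO were called for 5 of 6 Langerhans cell, 3 of 5 T lymphocyte, 3 of 6 fibroblast, 3 of 4 endothelial, 2 of 4 sebocyte and 1 of 8 keratinocyte markers, and lower means for 3 of 6 hair follicle, 2 of 7 melanocyte, 2 of 8 keratinocyte, 1 of 4 sebocyte and 2 of 4 muscle markers, with Acta1 at log2 levels of 2.21 (EpiKO) and 9.90 (WT) in the authors' deposited table. In such bulk samples fewer cells of a type and less RNA per cell cannot be told apart.

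Most of the chaperone genes assigned a rhythm were placed in the class with the same rhythm in both genotypes. Of the 36 genes, 20 were in the same-rhythm class, against 16.7% of all genes, and 12 had no rhythm, against 56.7%. Cct2 was the 1 gene assigned to EpiKO only (4.31% of all genes), and none was assigned to WT only (8.41%) or to different rhythms (2.65%). Hsf1, Hsf2 and Tcp1 had no weight of 0.5 and were left without a class, as were 11.3% of all genes. The members just above that limit were Dnajb4 (0.609), Cct4 (0.614) and Cct7 (0.622) for the same rhythm, and Hsf2 (0.497) lay just below it for WT only, in the authors' deposited table.

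By the recovered tests, 23 of 36 had a rhythm over both genotypes together at an adjusted p of at most 0.05, against 25.1% of all genes. A rhythm in EpiKO taken alone passed for 12 (8.77% of all genes) and in WT taken alone for 15 (17.7%). In both genotypes 11 passed, against 873 of the 17721 genes of the table. The rhythm differed between genotypes beyond error in 0 of the 36, against 4.18% of all genes (adjusted p at least 0.403, F test of the recovered likelihood ratio). At an unadjusted p of 0.05 the same test called 0 of the 36, against 2234 of the 17721 genes. With a chi-squared distribution in place of the F distribution it called 2, Hsf1 and Cct4, against 2737 of the 17721.

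**Figure D1:**
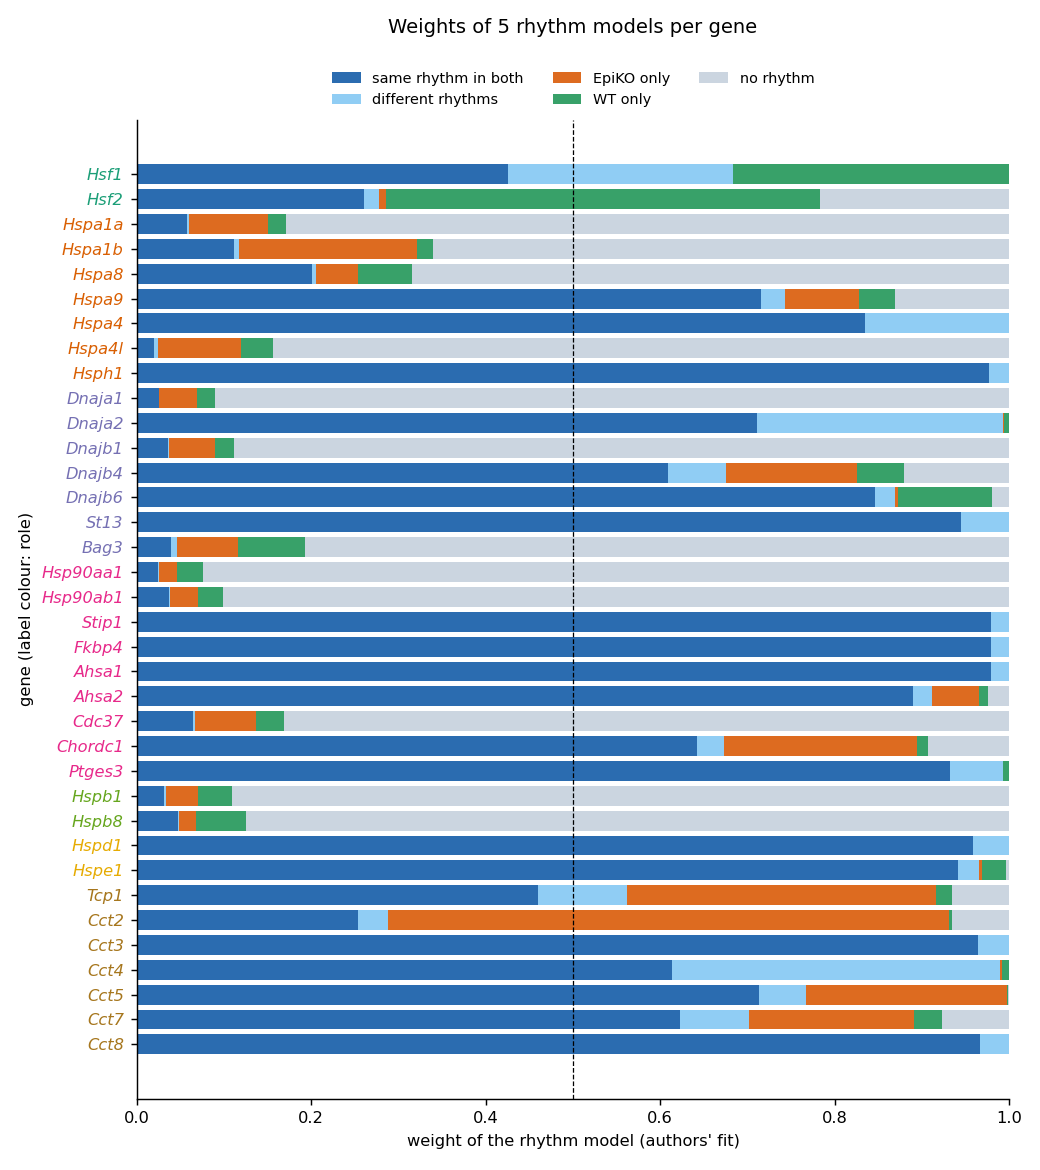
Weights of the 5 rhythm models (horizontal axis, stacked from 0 to 1) for the 36 chaperone genes (vertical axis, label colour by role), with a dashed line at 0.5 for the leftmost segment, the same rhythm in both genotypes. That segment passes 0.5 in 20 genes, and the grey segment of no rhythm is the largest in 12.

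Heat shock element letters were looked for in the 250 bases before each RefSeq gene start (RefSeq, build GRCm38.p6), where 29 of the 36 genes had an entry. A 2-unit element was spelled GAANNTTC or TTCNNGAA and a 3-unit element GAANNTTCNNGAA or its reverse complement TTCNNGAANNTTC, on both strands, so that each 3-unit match also holds 2-unit matches. At least 1 start held a 2-unit element in 13 of the 29 genes, against 14.5% of 27025 genes, and a 3-unit element in 3 (Dnajb6, Hspd1 and Hspe1), against 0.514%. The clock's E-box, CACGTG, stood before a start of 3 (Hsf2, Hspd1 and Hsph1), against 6.86%. A 2-unit element was found in 7 of 17 same-rhythm genes and in 5 of 9 genes with no rhythm. Such a match describes letters and not a bound site. The elements of Hspd1 and Hspe1 are the same block read on opposite strands. Hspa1a and Hspa1b have near-identical stretches, with GAAGATTC 104 bases before the start in both. The counts above are thus of genes and not of separate sites. The sequences below, with element letters in capitals and written along the strand of the gene, belong to 3 genes that cycled and to Hspa1b, which carries an element and did not pass a test of rhythm.
Hsph1 (chr5:149636337-149636586, minus strand): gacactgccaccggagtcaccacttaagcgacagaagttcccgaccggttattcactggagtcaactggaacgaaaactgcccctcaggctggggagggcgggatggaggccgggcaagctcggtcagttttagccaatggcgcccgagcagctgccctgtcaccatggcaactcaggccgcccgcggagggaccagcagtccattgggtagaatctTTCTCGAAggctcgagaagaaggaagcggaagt
Hspe1, running to the second RefSeq start of Hspd1 (chr1:55087933-55088147, plus strand): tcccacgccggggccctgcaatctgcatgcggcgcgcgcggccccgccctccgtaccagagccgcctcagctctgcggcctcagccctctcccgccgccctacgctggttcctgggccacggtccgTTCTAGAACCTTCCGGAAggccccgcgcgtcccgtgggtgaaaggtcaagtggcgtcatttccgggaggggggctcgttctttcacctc
Fkbp4 (chr6:128438657-128438906, minus strand): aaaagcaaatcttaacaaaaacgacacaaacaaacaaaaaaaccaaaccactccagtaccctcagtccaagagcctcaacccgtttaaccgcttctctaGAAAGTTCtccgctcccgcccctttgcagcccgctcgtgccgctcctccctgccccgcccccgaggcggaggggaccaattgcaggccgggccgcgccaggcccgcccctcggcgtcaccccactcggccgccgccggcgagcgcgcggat
Hspa1b (chr17:34959239-34959488, minus strand): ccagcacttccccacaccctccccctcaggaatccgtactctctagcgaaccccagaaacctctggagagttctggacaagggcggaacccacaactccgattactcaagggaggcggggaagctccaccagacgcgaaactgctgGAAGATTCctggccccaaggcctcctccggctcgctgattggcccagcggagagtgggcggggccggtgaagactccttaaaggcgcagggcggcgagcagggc

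Of the transcription factors, Hsf1 (chromosome 15, 76477422 to 76501913, mm10), the activator of the heat shock response, had a low rhythm. Over both genotypes its amplitude was 1.13-fold (95% interval 1.07 to 1.20) with a peak at ZT18.2, and it passed the test (adjusted p = 0.000766, F test of the recovered likelihood ratio). In WT alone it passed (adjusted p = 0.00188) and in EpiKO alone it did not (adjusted p = 0.202), by the same test. The test of that difference gave an adjusted p of 0.406, so a loss in EpiKO was not shown. Its weights were 0.426 for the same rhythm, 0.316 for WT only and 0.257 for different rhythms in the authors' deposited table. Hsf2, a relative that can pair with HSF1, did not pass over both genotypes (adjusted p = 0.0818, F test of the recovered likelihood ratio). Its log2 mean was 10.69 (EpiKO) against 9.86 (WT) in the authors' deposited table, a 1.78-fold difference.

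Within the HSP70 and HSP110 group, 3 of 7 genes passed the test over both genotypes and the rest did not. Hsph1 (chromosome 5, 149614287 to 149636376), which encodes HSP110, a nucleotide exchange factor of HSP70, had the largest amplitude of all 36 genes. Its fitted level in EpiKO fell from 10.80 at ZT0 to 10.21 at ZT4 and 10.02 at ZT8 (log2), and stood at 10.41, 10.99 and 11.18 at ZT12, ZT16 and ZT20. In WT the fitted levels at the same times were 10.50, 9.92, 9.72, 10.11, 10.69 and 10.89 (log2). Both curves were thus lowest at ZT8 and highest at ZT20 of the sampled times, as the model of a common rhythm sets. The amplitude was 2.28-fold (95% interval 1.84 to 2.82) with a peak at ZT19.3 (SE 0.51 h), and the test passed in EpiKO alone (adjusted p = 0.000278) and in WT alone (adjusted p = 9.7e-05; F tests of the recovered likelihood ratio). Among the 2210 same-rhythm genes at or above the median level of the table, that amplitude ranked 16, and among all 2954 same-rhythm genes 173.

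Hspa4, another HSP110 relative, cycled 1.24-fold (95% interval 1.17 to 1.32) with a peak at ZT19.6, and passed in EpiKO alone (adjusted p = 0.00023) and in WT alone (adjusted p = 0.00015; F tests of the recovered likelihood ratio). For Hspa9, the HSP70 of mitochondria, the amplitude was 1.09-fold (1.04 to 1.15) at ZT17.1, which passed over both genotypes (adjusted p = 0.0285) and in neither alone. The heat-inducible pair Hspa1a and Hspa1b, the constitutive Hspa8 and the HSP110 relative Hspa4l did not pass over both genotypes, with adjusted p-values of 0.529, 0.304, 0.211 and 0.951 in that order (F tests of the recovered likelihood ratio). Their weights for no rhythm were 0.828, 0.661, 0.684 and 0.844 in the authors' deposited table. Hspa1a, Hspa1b, Hspa8 and Hspa4l thus did not pass in the libraries where Hsph1, Hspa4 and Hspa9 did. The difference between these genes was not tested.

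Of the 7 partners of HSP70, 4 passed the test over both genotypes, with 2 peaks in the dark phase and 2 in the light phase. St13, which encodes the HSP70-interacting protein Hip, cycled 1.33-fold (95% interval 1.24 to 1.43) with a peak at ZT19.9 and passed in each genotype alone (adjusted p = 0.000474 in EpiKO and 6.36e-06 in WT, F tests of the recovered likelihood ratio). Dnaja2, a J-domain cochaperone, cycled 1.15-fold (1.10 to 1.21) at ZT14.8. In Dnajb6, a J-domain protein that holds back aggregation, the amplitude was 1.14-fold (1.07 to 1.22) at ZT11.1, when the light phase was ending.

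Dnajb4 was the furthest from the rest in time. Its 1.75-fold amplitude (95% interval 1.26 to 2.43) peaked at ZT7.14 (4.88 to 9.40), near the trough of Hsph1, and it had the widest error of the 20 same-rhythm genes, an SE of 0.24 (log2). It passed over both genotypes (adjusted p = 0.0302) and in neither alone (adjusted p = 0.163 in EpiKO and 0.219 in WT, F tests of the recovered likelihood ratio). Dnaja1, Dnajb1 and Bag3, which are among the genes most induced by heat in many cells, did not pass over both genotypes, with adjusted p-values of 0.883, 0.722 and 0.653 by that test.

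Among HSP90 genes and their cochaperones, 6 of 9 passed over both genotypes, and all 6 peaked between ZT18.0 and ZT19.9. Stip1, the adaptor HOP that links HSP70 to HSP90, had an equal mean of 11.07 (log2) in the 2 genotypes in the authors' deposited table. Its fitted level ran from 10.73 at ZT8 to 11.41 at ZT20 (log2), an amplitude of 1.60-fold (95% interval 1.44 to 1.78) with a peak at ZT19.8. Fkbp4 (chromosome 6, 128429735 to 128438677), which encodes FKBP52, an immunophilin of steroid receptor complexes, cycled 1.51-fold (1.39 to 1.64) at ZT19.1 (SE 0.40 h). This was the smallest adjusted p of the 36 genes over both genotypes (2.01e-16), with 7.84e-07 in EpiKO alone and 4.22e-08 in WT alone (F tests of the recovered likelihood ratio). Ahsa1, the activator of the HSP90 ATPase, cycled 1.45-fold (1.32 to 1.58) at ZT19.3.

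Ptges3, which encodes the cochaperone p23, cycled 1.32-fold (95% interval 1.21 to 1.44) at ZT19.9, and passed in WT alone (adjusted p = 6.05e-05) but not in EpiKO alone (adjusted p = 0.056). The difference between genotypes did not pass for it (adjusted p = 0.855, F test of the recovered likelihood ratio). Chordc1, which binds HSP90 through its zinc-binding domains, cycled 1.23-fold (1.09 to 1.39) at ZT18.6 and passed over both genotypes (adjusted p = 0.024) but in neither alone. For Ahsa2 the values were 1.31-fold (1.14 to 1.51) and ZT18.0, but 43.3% of its 51-base windows are also found in Usp34, so this value may mix both genes. The HSP90 genes themselves, Hsp90aa1 (adjusted p = 0.889) and Hsp90ab1 (adjusted p = 0.718), and the kinase-specific cochaperone Cdc37 (adjusted p = 0.494) did not pass over both genotypes (F tests of the recovered likelihood ratio). So cochaperones that passed stood beside HSP90 genes that did not.

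Neither small heat shock protein, Hspb1 (adjusted p = 0.77) nor Hspb8 (adjusted p = 0.619), passed over both genotypes (F tests of the recovered likelihood ratio). These proteins hold unfolding clients without using ATP. Their weights for no rhythm were 0.891 and 0.875 in the authors' deposited table.

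The mitochondrial chaperonin genes are neighbours that point away from each other on chromosome 1, with Hspd1 (HSP60) at 55077835 to 55088243 on the minus strand and Hspe1 (HSP10) at 55088132 to 55091307 on the plus strand (mm10). Both passed over both genotypes, Hspd1 with 1.35-fold (95% interval 1.26 to 1.46) at ZT18.8 and Hspe1 with 1.23-fold (1.12 to 1.35) at ZT19.4. Their peak intervals, 17.9 to 19.7 and 17.7 to 21.2 h, overlap. The block of GAA and TTC units printed above lies before the start of Hspe1 and before the second of the 2 RefSeq starts of Hspd1, and inside the annotated Hspd1 gene as counted from its first start. Their annotated ends overlap on opposite strands, and the sources used here do not state whether counting used the strand. Hspd1 passed in each genotype alone (adjusted p = 4.63e-05 in EpiKO and 1.46e-05 in WT), while Hspe1 passed in WT alone (adjusted p = 0.0388) and not in EpiKO alone (adjusted p = 0.199; F tests of the recovered likelihood ratio). For Hspe1 the difference between genotypes had an adjusted p of 1 by that test.

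The cytosolic chaperonin TCP1 ring complex folds actin and tubulin, and all 7 of its measured subunit genes passed over both genotypes, with small amplitudes. The largest was that of Cct3, 1.26-fold (95% interval 1.19 to 1.34) at ZT20.2, followed by Cct8 with 1.17-fold (1.12 to 1.23) at ZT19.3. Cct4 (1.13-fold), Cct5 (1.11-fold) and Cct7 (1.08-fold) made up the 5 same-rhythm genes. The fitted peaks of these 5 subunits did not fall together. Cct3, Cct7 and Cct8 peaked between ZT19.0 and ZT20.2, Cct5 at ZT16.4 (14.7 to 18.1) and Cct4 at ZT10.8 (9.38 to 12.3). The interval of Cct4 did not overlap those of the other 4. These intervals take 1 rhythm for both genotypes, and Cct4 had a weight of 0.375 for different rhythms in the authors' deposited table. Cct2, which the authors' deposited table assigns to EpiKO only (weight 0.644), had a 1.12-fold rhythm there at ZT11.2. In the test of EpiKO alone Cct2 missed the threshold (adjusted p = 0.0516), and its rhythm did not differ between genotypes beyond error (adjusted p = 0.705, F tests of the recovered likelihood ratio). Tcp1 passed over both genotypes (adjusted p = 0.0238) with 1.08-fold (1.03 to 1.13) at ZT19.0.

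**Figure D2:**
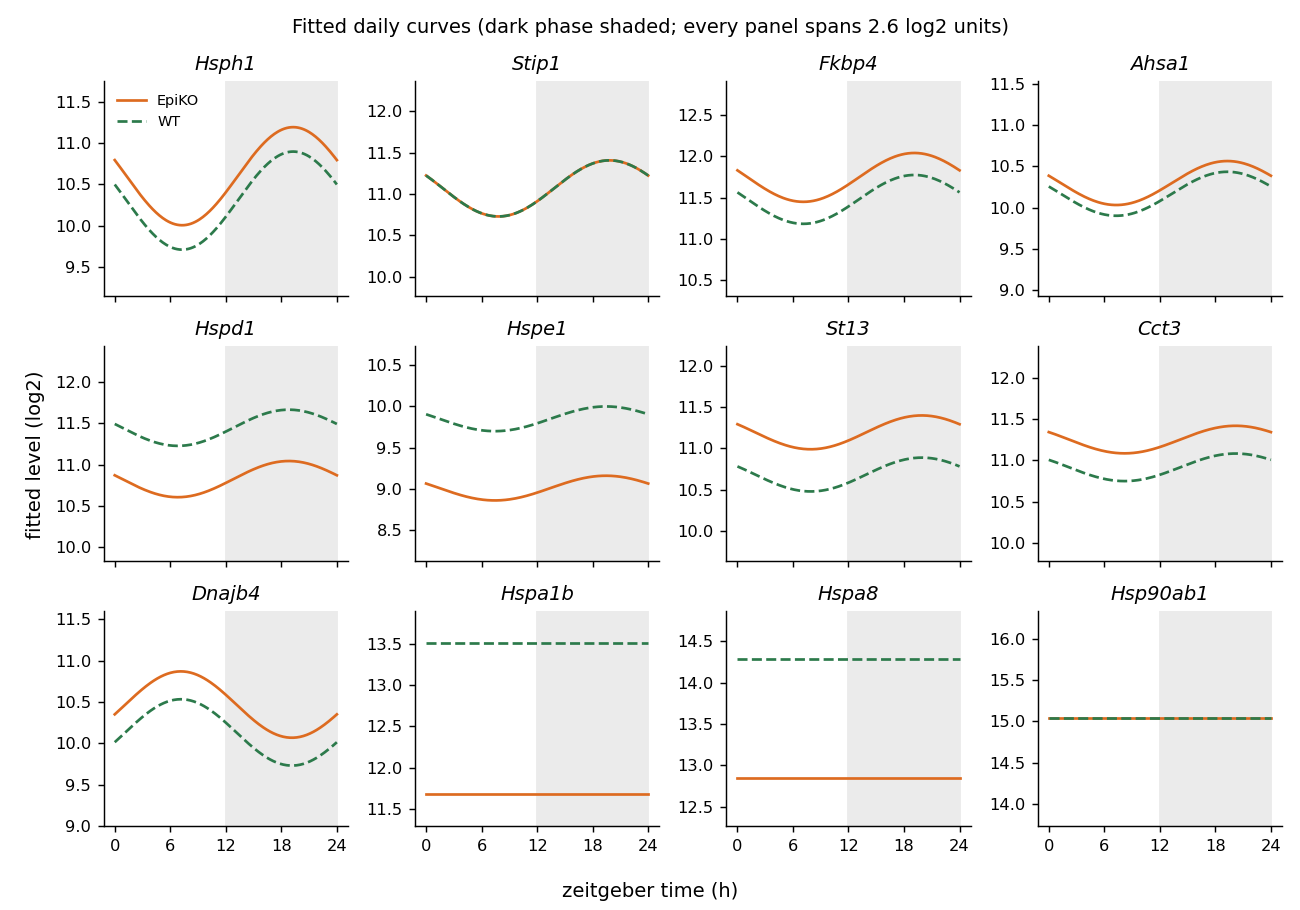
Fitted level (log2) over the day (zeitgeber time, h) for 12 chaperone genes in EpiKO (solid) and WT (dashed), drawn from the deposited mean, amplitude and peak time, with the dark phase shaded and an equal span of levels in every panel. The first 8 genes peak in the dark phase between ZT18.8 and ZT20.2, Dnajb4 peaks at ZT7.14, and Hspa1b, Hspa8 and Hsp90ab1 are assigned no rhythm.

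Peaks gathered late in the dark phase. Of the 20 same-rhythm genes 17 peaked between ZT12 and ZT24, against 49.8% of the 2954 same-rhythm genes of the table, and 15 peaked between ZT16 and ZT20, against 29.2%. Between ZT18 and ZT20.5 there were 14, against 19.3%. Heat shock genes were known to peak together in these data when the genes were chosen, and the narrow window was set after seeing the peaks, so these counts are a description. The median amplitude of the 20 was 1.25-fold and that of all same-rhythm genes 1.24-fold. Among the 2210 same-rhythm genes at or above the median level, the middle members by amplitude, Cct3 and Hspa4, ranked 707 and 818. Some cell type markers peaked in the same part of the day. Of 7 melanocyte markers 4 had the same rhythm with peaks from ZT17.3 to ZT17.9 (1.71-fold to 4.38-fold), of 8 keratinocyte markers Ivl (1.90-fold) and Krt1 (1.31-fold) peaked at ZT20.4 and ZT21.4, and of 6 hair follicle markers Lhx2 (2.38-fold) peaked at ZT20.2, in the authors' deposited table. Others in these lists differed in class or time in the authors' deposited table. Krt15 (ZT11.1) and Mitf (ZT12.3) were assigned to WT only, and Tyr (ZT16.8) and Krt25 (ZT15.5) to EpiKO only. Trp63 and Krt27, with no weight of 0.5, had fitted peaks at ZT8.42 and ZT15.0. The part of these cell types in the chaperone rhythms was not tested.

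**Figure D3:**
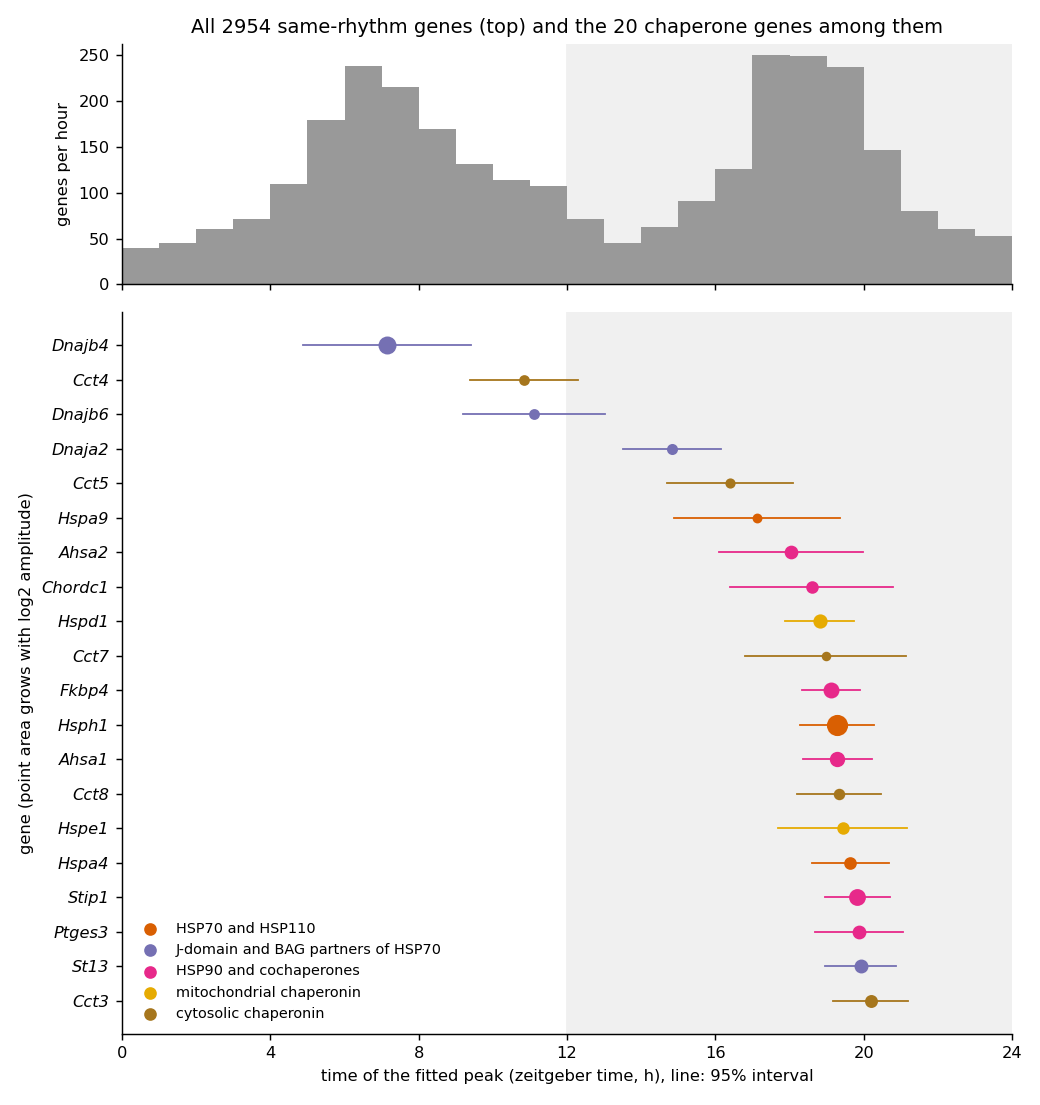
Time of the fitted peak (zeitgeber time, h; dark phase shaded) of the 20 same-rhythm chaperone genes, with 95% intervals and point area growing with amplitude (bottom), below the number of peaks per hour over all 2954 same-rhythm genes (top). Of the 20 genes 14 lie between ZT18 and ZT20.5, and Dnajb4, Cct4 and Dnajb6 lie in the light phase.

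The amplitude in each genotype was also recovered from the likelihood ratios, since a gene of the same-rhythm class has a single deposited amplitude. In Hsph1 it was 1.19 in EpiKO and 1.19 in WT (log2; SE 0.22 each). For Stip1 the 2 values were 0.65 and 0.71 (SE 0.11), for Fkbp4 0.58 and 0.61 (SE 0.09), for Ahsa1 0.52 and 0.54 (SE 0.09) and for Hspd1 0.44 and 0.44 (SE 0.08). Over the 20 genes the median was 0.32 in EpiKO and 0.34 in WT (log2), with the larger value in EpiKO for 7 and in WT for 13. In 15 of the 20 the 2 values lay within 1 SE of a genotype's amplitude of each other. Ptges3, with 0.31 in EpiKO and 0.49 in WT (SE 0.09), and Cct5, with 0.20 and 0.11 (SE 0.05), were among the others. The gap between the peaks of the 2 genotypes, recovered likewise, was 0.08 h for Fkbp4, 0.09 h for Stip1 and 0.53 h for Hsph1. It was largest for Dnaja2 (3.03 h), Cct4 (3.56 h), Cct7 (3.79 h) and Dnajb4 (3.81 h). No error was computed for these gaps.

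How large a difference between genotypes remained possible varied between genes. The curve of EpiKO minus WT had an upper 95% limit of 0.33 (log2 peak to trough, 1.26-fold) for Fkbp4, 0.37 (1.29-fold) for Ahsa1, 0.44 (1.36-fold) for Stip1 and 0.40 (1.32-fold) for Hspd1. For Cct8 the limit was 0.24 (1.18-fold). It was wider for Hsph1, 0.94 (1.92-fold), and widest for Dnajb4, 2.07 (4.20-fold). Differences up to these limits are within the 95% interval, and an adjusted p above the threshold does not show that the rhythms were equal.

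**Figure D4:**
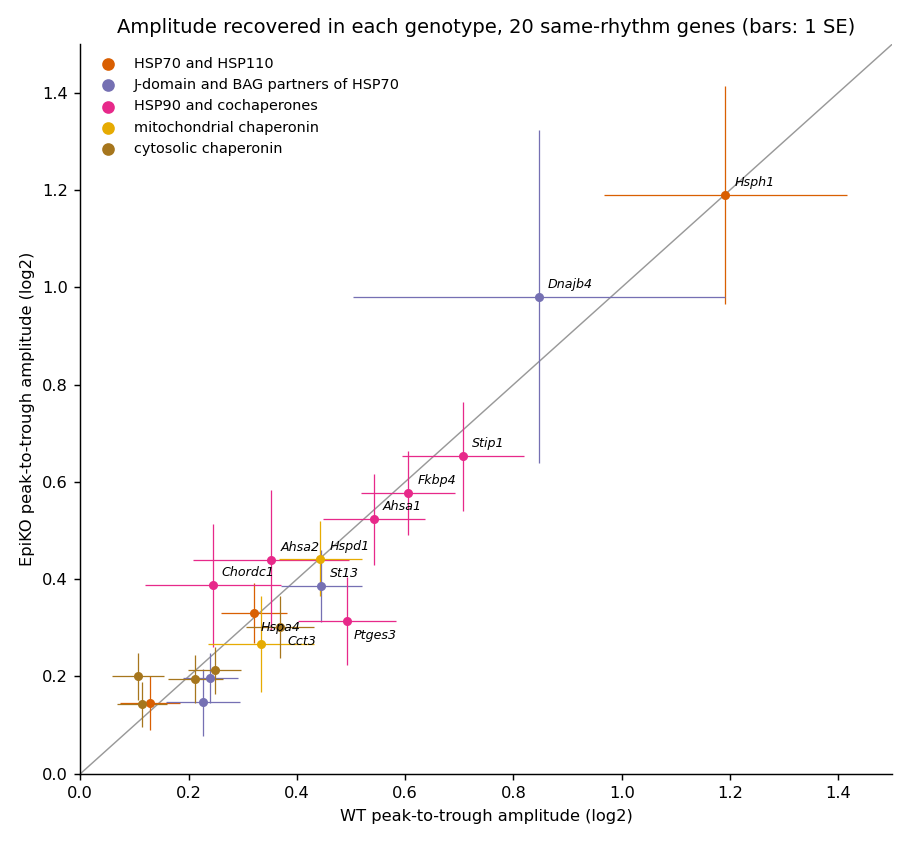
Peak-to-trough amplitude (log2) recovered in EpiKO (vertical axis) and WT (horizontal axis) for the 20 same-rhythm chaperone genes, with bars of 1 SE and the line of equality. Hsph1 lies on the line at 1.19 in both, and the bars of 15 genes reach the amplitude of the other genotype.

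For the 12 genes assigned no rhythm, the same method gave upper limits of a rhythm shared by both genotypes. Their errors were larger: the SE of the shared amplitude had a median of 0.14 (log2; 0.03 to 0.19) over the 10 for which the means set a scale, against 0.05 over the 20 same-rhythm genes. The upper 95% limit of the amplitude was 0.13 (1.09-fold) for Cdc37, 0.21 (1.16-fold) for Hspa4l, 0.44 (1.36-fold) for Hspb1 and 0.49 (1.40-fold) for Hspa8. It was 0.54 (1.46-fold) for Dnaja1, 0.57 (1.48-fold) for Hspa1b, 0.60 (1.52-fold) for Hsp90aa1, 0.60 (1.52-fold) for Bag3, 0.62 (1.54-fold) for Hspb8 and 0.77 (1.70-fold) for Hspa1a. A rhythm shared by both genotypes and like the 1.51-fold one of Fkbp4 would thus lie within the limits for Hsp90aa1, Bag3, Hspb8 and Hspa1a. It would lie above those for Cdc37, Hspa4l, Hspb1, Hspa8, Dnaja1 and Hspa1b. For 1 genotype alone the SE is larger (0.18 against 0.13 for Hspa1b, log2), and no limits are given here for such a rhythm. For Hspa1a the limit rests on the error of the mean, which in genes with mean differences over 2 was larger than the error of the rhythm (median ratio of rhythm error to mean error 0.708). Dnajb1 and Hsp90ab1 have equal deposited means, which leave no scale and no limit.

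Mean levels over the day differed between genotypes in most of these genes. In EpiKO 20 were higher, against 31.3% of all genes, and 12 were lower, against 36%, and Dnajb1, Hsp90ab1, Stip1 and Dnajb4 did not pass (F test of the recovered likelihood ratio). All 7 subunits of the cytosolic chaperonin were higher, from 0.30 ± 0.02 for Tcp1 to 0.75 ± 0.02 for Cct2 (log2, EpiKO minus WT, ± SE; 24 libraries per genotype). Hspa4l differed by 0.90 ± 0.05, Hsf2 by 0.83 ± 0.04, Chordc1 by 0.59 ± 0.06, St13 by 0.51 ± 0.04 and Hsph1 by 0.30 ± 0.11 (log2).

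The lower genes were led by Hspa1a, at log2 means of 9.71 (EpiKO) against 13.28 (WT) in the authors' deposited table, a difference of -3.57 ± 0.14. Dnajb6 differed by -1.90 (log2). Its SE is given only as at most 0.05, because its deposited weight for equal means was 0. Hspa1b differed by -1.83 ± 0.09, Hspb1 by -1.46 ± 0.09, Hspa8 by -1.43 ± 0.07 and Hsp90aa1 by -1.25 ± 0.13 (log2). Hspe1 (-0.84 ± 0.05), Ptges3 (-0.82 ± 0.05), Dnaja1 (-0.74 ± 0.12), Hspd1 (-0.62 ± 0.04), Bag3 (-0.50 ± 0.11) and Hsf1 (-0.08 ± 0.03) followed.

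Sequence shared with other genes moved with these differences. Of the 51-base windows of their transcripts, the length of the reads, Hspa1a shared 66.1% with other genes and Hspa1b 62% (each mostly with the other), Hspb1 49.9%, Hsp90aa1 47.3%, Hspd1 41.6% and Hspa8 39.1%, in the last 4 mostly with pseudogenes. Of the 11 genes with more than 19% of shared windows 10 were lower in EpiKO, against 75.1% of all such genes of the table. Ahsa2 was higher, and this limit was set after seeing the values. With at most 5% of shared windows, 18 of 23 genes were higher, against 36% of all such genes. In that range 2, Hsf1 and Bag3, were lower, against 27.8%. The same held over the table: among genes at or above the median level, the median difference was 0.11 (log2) for genes with no shared window, -0.57 for 20 to 40%, -1.20 for 40 to 60% and -2.43 for more. The part of shared sequence in the lower means was not tested. Values for Hspa1a and Hspa1b are uncertain because the authors' counting could split reads between them. Of the 23 genes with at most 5% of shared windows 14 were in the same-rhythm class, against 17.3% of all such genes. Of these 23 genes 6 had no rhythm and 16 passed over both genotypes. Of the 13 with more, 6 were in the same-rhythm class, against 15.1%. The 2 genes above 60%, Hspa1a and Hspa1b, had no rhythm. The part of shared sequence in the rhythm classes was not tested either.

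**Figure D5:**
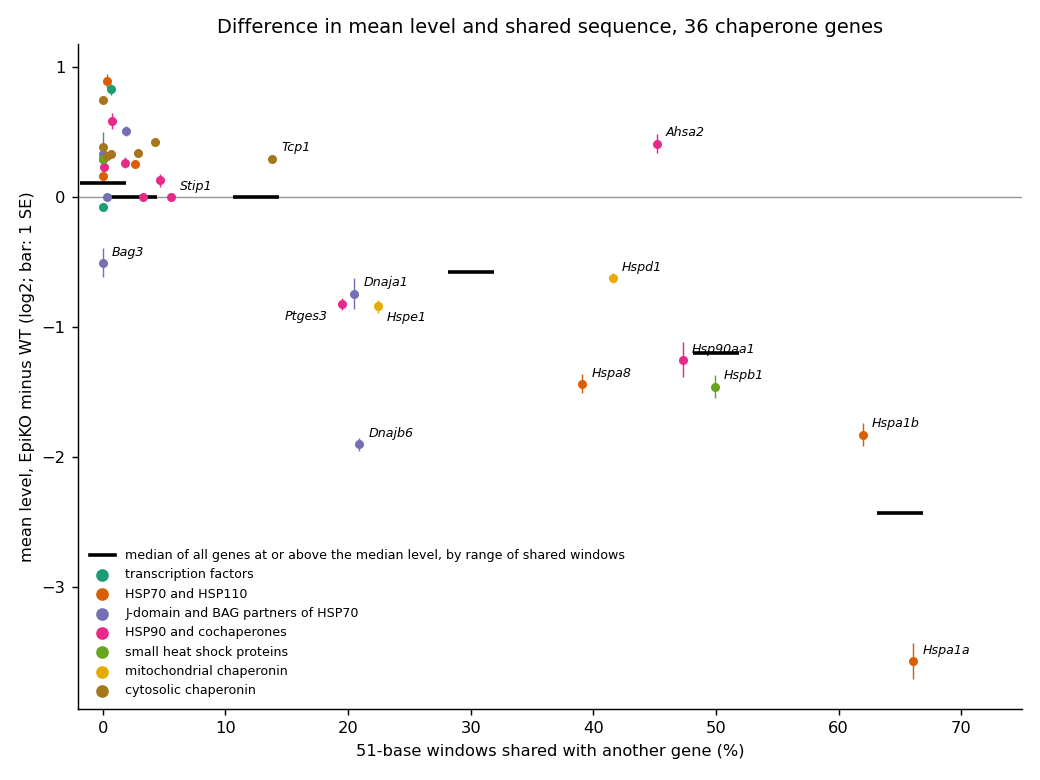
Difference in mean level between EpiKO and WT (log2, bars of 1 SE) of the 36 chaperone genes (vertical axis) against the share of their 51-base windows found in another gene (horizontal axis, %). The bar of Dnajb6 is an upper bound of its SE. Black dashes give the median over all genes at or above the median level, placed within the ranges 0, over 0 to 5, over 5 to 20, over 20 to 40, over 40 to 60 and over 60%, and 10 of the 11 genes above 19% lie below 0.

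Other genes of these families cycled in part. Over both genotypes 4 of 15 other J-domain genes, 5 of 12 other HSP70 genes and exchange factors, 8 of 14 other HSP90 cochaperones and 4 of 9 prefoldin and chaperonin cofactors passed the test, against 25.1% of all genes, and no difference between lists was tested. Of the 4 J-domain genes past that test, those with the largest amplitudes were Dnajb2 (1.33-fold, ZT19.9), Dnajb5 (1.31-fold, ZT17.1) and Dnaja3 of mitochondria (1.21-fold, ZT17.8) in the authors' deposited table. Among the cochaperones Nudc (1.32-fold) peaked at ZT18.8 in both genotypes, while Cdc37l1 (1.35-fold in EpiKO) and Ppp5c (1.24-fold in WT) were assigned to 1 genotype in the authors' deposited table. The nucleotide exchange factor Bag4 peaked in the light phase, with 1.48-fold at ZT9.57 in the authors' deposited table. Of the 5 other small heat shock genes measured Hspb6 passed, and in the 4 other HSF genes and HSF regulators (Hsf4, Hsf5, Hsbp1 and Hikeshi) the adjusted p ran from 0.0786 to 0.66 (F test of the recovered likelihood ratio).

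Most chaperones of the endoplasmic reticulum on the list used here peaked in the dark phase too. Of the 14 listed, 12 had the same rhythm in both genotypes, and these peaked between ZT18.4 and ZT21.4, with a median of ZT20.2 and a median amplitude of 1.55-fold, against a median of ZT19.0 and 1.25-fold in the 20 heat shock genes. This difference was not tested. Hspa5 of that list was assigned no rhythm (weight 0.706) in the authors' deposited table. Dnajb9, with no weight of 0.5, had a fitted peak at ZT7.13 there. The cold-inducible RNA-binding protein genes, whose mRNA rises when temperature falls, peaked in the light phase: Cirbp 1.74-fold at ZT6.41 and Rbm3 1.74-fold at ZT8.15, both with the same rhythm in the 2 genotypes, in the authors' deposited table. Both passed in EpiKO alone (adjusted p = 0.00691 and 0.000132, F tests of the recovered likelihood ratio). Their peaks lay near the trough of Hsph1.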

How the data were processed

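The genes and lists were chosen with earlier results of these data known. Per the labels' protocols, stranded libraries of polyadenylated RNA were read as single reads of 51 bases. Tools in the submitters' processing notes are featureCounts 1.6.0 and edgeR, HISAT2 2.2.1 with SAMtools 1.3.1, and Trimmomatic 0.36; the build is mm10. The authors deposited 1 table with a dryR fit per gene: model weights (scores from 0 to 1), log2 means and amplitudes, and peak times. The sources used here do not state how the libraries were scaled.

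From the weights, likelihood ratios were computed as 2 times the difference of log weights plus the penalty of the Bayesian information criterion for 48 libraries. The largest weight of the same-rhythm model, 0.98, corresponds to 47.96 libraries. Ratios were referred to an F distribution and adjusted over 17721 genes (Benjamini-Hochberg, threshold 0.05). An amplitude divided by the root of its ratio gave its SE. In the 470 genes with different rhythms, the log2 amplitude ratio deposited minus recovered had a median of -0.00936 and quartiles of -0.0415 and 0.0232. In 2223 same-rhythm genes the errors from rhythm and from mean difference had a median ratio of 0.998.

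Shared sequence was counted as 51-base windows of GENCODE M21 transcripts (mm10) that occur in another gene's transcripts in either orientation. An amplitude was printed for every gene past the test over both genotypes. Adjusted p-values and mean differences were printed for only part of the genes past a test. Values were also printed for Hsf1, Hsf2, Hspa1a, Hspa1b, Hsp90aa1, Hsp90ab1 and Hspa8 whatever their result. In other lists they were printed for up to 3 genes of largest amplitude among those past the test over both genotypes. Arntl and Dbp served as the check of the knockout and Cirbp and Rbm3 as the cold-inducible counterpart. Other genes named were chosen after their values were seen. Python 3.11.15, NumPy 2.4.6, pandas 2.3.3, SciPy 1.17.1 and Matplotlib 3.10.9 were used.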

Additional observations from a re-analysis of the deposited data

Results flagged for a closer look

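Of the genes listed with the chaperones, 2 had a rhythm that differed between genotypes by the F test of the recovered likelihood ratio. Hspb6, a small heat shock protein gene, had a difference with an adjusted p of 0.00276, with 1.88-fold at ZT8.46 in EpiKO (weight 0.629 for EpiKO only) in the authors' deposited table. Grpel2, a nucleotide exchange factor of mitochondrial HSP70, had an adjusted p of 0.0378, with 1.38-fold at ZT7.06 in WT (weight 0.892 for WT only) in the authors' deposited table. Both peaked in the light phase and neither is among the 36 genes of the report. The genes of the knockout check also differed, Arntl with an adjusted p of 4.07e-20 and Dbp with 7.14e-24.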

How the results depend on the processing

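Of 53 counts under another setting 43 stayed within 1.5 times of the reported count. With a weight limit of 0.8 the same-rhythm genes numbered 13 and the EpiKO-only genes 0. With a minimum amplitude of 0.25 (log2) there were 13 genes with the same rhythm, 20 with none and 0 in EpiKO only. With no weight limit and with a limit of 0.4, 1 gene, Hsf2, was WT only. Over the 23 genes with at most 5% of shared windows, 6 had no rhythm and, in a count added after seeing the data, 2 had a lower mean in EpiKO. With a minimum difference of 0.5 (log2), 5 genes were higher in EpiKO. The count of genes whose rhythm differed between genotypes was 0 under all 4 alternatives tried for it, and the numbers past the test over both genotypes ran from 16 to 23. Of single adjusted p-values, 4 of 144 passed only with a chi-squared distribution and 2 of 144 only without the genes under the 0.25 quantile of mean level. These were Cct2 (0.0239 and 0.0394) and Ptges3 (0.0264 and 0.0429) in EpiKO alone under both settings, and Tcp1 in EpiKO alone (0.0359) and Hsf2 in WT alone (0.0442) under the first. At a threshold of 0.01, 11 of 144 calls were lost and none gained.

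No paired analysis was possible because the deposited table holds 1 fit per gene and no values per library, and leaving out a replicate was not possible for the same reason. Depth is unknown, so the limits on amplitudes given above stand in for it.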

Other observations

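Some genes of the wider lists had far lower means in EpiKO with little shared sequence, and were picked here after their values were seen. Hspb7, a small heat shock protein gene of heart and skeletal muscle, stood at -2.29 in EpiKO and 8.53 in WT (log2) with 0.592% of its 51-base windows shared, in the authors' deposited table. Hyou1, the HSP110 relative of the endoplasmic reticulum, stood at 10.49 and 13.19 with 0.192% shared, while its rhythm was assigned as the same in both genotypes (1.44-fold, ZT20.5), in the authors' deposited table. Of the 4 muscle markers, Acta1 (2.21 and 9.90) and Myh1 (-0.64 and 1.15) were lower too, while Ckm (0.68) and Myl1 (0.53) had equal and low means, in the authors' deposited table. Of the 7 melanocyte markers Tyr (3.60 and 8.65) and Pmel (6.61 and 7.05) were lower and the other 5 had equal means, in the authors' deposited table. What set these genes apart was not tested.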
